A study of Mus musculus with 20 samples.

Results

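Vgf and 9 other genes for secreted neuropeptides and granins were followed in the mouse retina across age and treatment. The 10 genes were Vgf, Scg2, Chgb, Vip, Tac1, Adcyap1, Sst, Npy, Cck and Penk, out of 35006 genes in the deposited count files. They were taken by name. Vgf was selected on its readout, since the study named it from these same libraries as lower in old controls and higher in old mice given NACET. Its values in those 2 contrasts are therefore given as a description with no test, and the counts there are over the 9 other genes.

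RNA was sequenced from 1 retina each of 20 C57BL/6J mice, an inbred laboratory strain. Treated mice drank NACET, the ethyl ester of N-acetylcysteine that enters cells and raises their glutathione supply, for 5 days at a daily dose of 50 mg/kg. The groups were 4 young controls of 119 days, 6 young NACET mice of 129 or 119 days, 4 old controls of 668 days and 6 old NACET mice. By their labels, the old NACET mice were 668 days (replicates 1 and 2), 581 days (replicates 3 and 4) or 574 days (replicates 5 and 6), so that only 2 of them had the age of the old controls. All old mice were labelled male, and 2 mice in each young group were labelled female, whereas the methods of the study describe males. For young NACET replicate 6 the labels gave both 119 and 129 days.

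Libraries held 17700500 to 31081959 gene counts. Levels are given as CPM, counts scaled to a library total of 1000000. Rhodopsin, the visual pigment of rods, took 3.31% to 5.54% of gene counts, and the listed markers of rods (7), amacrine cells (9) and ganglion cells (10) were detected in every library. Old control replicate 4 was labelled male but held 59555 counts of Xist, a transcript of female cells. The summed level of 4 corneal epithelium genes was 384 CPM in old control replicate 2, 364 CPM in young NACET replicate 4 and 189 CPM in young NACET replicate 5, against 0.396 to 81.9 CPM in the other 17 libraries. As whole retinas were sequenced, fewer cells of a type and less RNA per cell cannot be told apart. Nothing says whether mice of a group shared a litter or cage, and p-values measure the spread between these mice.

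Neuropeptides are made as precursor proteins, packed into dense core vesicles, cut into active peptides and released when a neuron is active. Granins such as VGF, secretogranin II and chromogranin B are acidic proteins of the same vesicles, where they help to load and store cargo, and they are themselves cut into peptides. In the retina most neuropeptides are made by subsets of amacrine cells, interneurons of the inner retina, while ganglion cells send the output to the brain. Several of these genes are textbook targets of CREB, the cAMP-responsive transcription factor that binds the cAMP response element (CRE).

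The letters of this element were therefore searched in the 250 bases before the RefSeq start of each gene (GRCm38.p6), for which 8 of the 10 genes had an entry, all but Vgf and Penk. The full palindrome TGACGTCA was present in 3 of them, Scg2, Chgb and Sst, and in 1.55% of the 32851 promoters of the table. The 5 letters TGACG, or CGTCA on the other strand, were in 7 of the 8 genes and in 17.8% of all promoters; the full palindrome holds both. The stretches below are shown because they place these letters in the 3 genes with the palindrome and in the 3 other genes that are followed most closely here, with the matching letters in capitals and each sequence read 5′ to 3′ along the strand of its gene.

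Scg2, chr1:79440061-79440120, minus strand: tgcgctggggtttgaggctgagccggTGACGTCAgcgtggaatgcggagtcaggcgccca
Chgb, chr2:132781544-132781603, plus strand: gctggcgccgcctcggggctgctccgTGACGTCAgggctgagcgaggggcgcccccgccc
Sst, chr16:23890859-23890918, minus strand: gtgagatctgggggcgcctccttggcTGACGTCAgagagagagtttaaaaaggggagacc
Vip, chr10:5639113-5639169, plus strand: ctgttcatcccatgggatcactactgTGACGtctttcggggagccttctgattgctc
Tac1, chr6:7554992-7555048, plus strand: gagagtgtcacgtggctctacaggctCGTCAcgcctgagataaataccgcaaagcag
Adcyap1, chr17:93198900-93198956, plus strand: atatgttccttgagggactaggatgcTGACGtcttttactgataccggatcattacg

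The first letter of the palindrome lay 68 bases before the start in Scg2, 72 in Chgb and 48 in Sst. The shorter match lay 79 bases before the start in Vip, 43 in Tac1 (with a further one at 197) and 91 in Adcyap1, for which the table lists another start, 242 bases after the same match. Cck held a shorter match 47 bases before its start, and in Npy these letters were not in the window. A match describes the sequence and is not a measured binding site.

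All 10 genes were detected in every library and passed the filter on low counts in every comparison. Levels of different genes were compared per kilobase of exonic sequence (GENCODE annotation of mm9), as a mean over the 20 libraries with SD. Scg2 (chromosome 1: 79431244 to 79436665), which encodes secretogranin II, was the most abundant at 150.1 CPM per kb ± 13.8, followed by Chgb (chromosome 2: 132607014 to 132620815), which encodes chromogranin B, at 105.6 ± 5.83. Tac1 (chromosome 6: 7505071 to 7512973), the precursor of substance P and neurokinin A, came next at 19.7 CPM per kb ± 4.11. Each of these 3 genes exceeded the next in all 20 libraries.

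Vgf (chromosome 5: 137506165 to 137509221, plus strand), whose product is a granin-like precursor of several peptides, followed at 12.0 CPM per kb ± 2.77, above Npy in 15 of the 20 libraries. Npy (chromosome 6: 49772709 to 49779506), the gene for neuropeptide Y, stood at 10.6 CPM per kb ± 2.51 and Sst (chromosome 16: 23889667 to 23890930), for somatostatin, at 8.23 ± 2.20. Penk (chromosome 4: 4060678 to 4065966), the enkephalin precursor, had a mean of 7.77 CPM per kb ± 8.73, an SD larger than the mean. Vip (chromosome 10: 4698927 to 4707323), for vasoactive intestinal peptide, reached 6.99 CPM per kb ± 1.89 and Cck (chromosome 9: 121398943 to 121404807), for cholecystokinin, 6.62 ± 0.843. Adcyap1 (chromosome 17: 93598762 to 93604825), the precursor of PACAP, was the lowest at 2.23 CPM per kb ± 0.542 and lay below Cck in all 20 libraries. From Vgf to Cck, neighbours in the order changed places in at least 4 libraries, so that their order was not separated beyond the spread. All positions are on mm9 and all 10 are protein-coding genes; Penk alone shares exonic bases (233) with another counted gene, the lincRNA A830012C17Rik on the opposite strand, and reads were counted without strand.

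**Figure D1:**
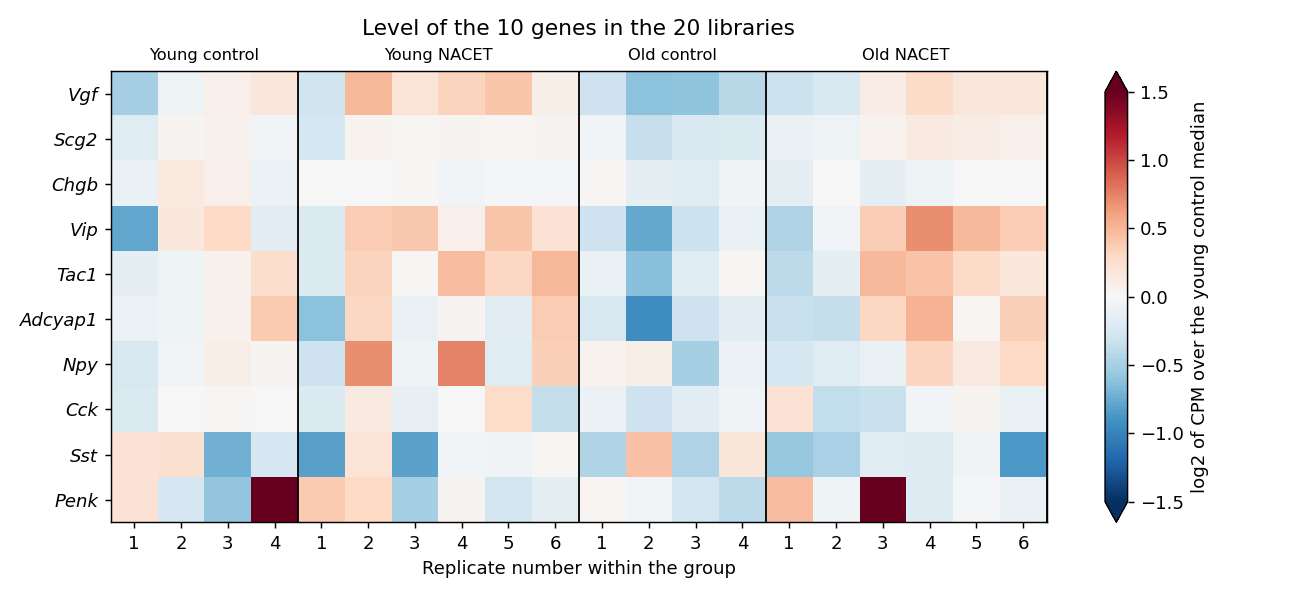
Level of the 10 genes (rows) in the 20 libraries (columns, by group and replicate number), as log2 of CPM over the median of the 4 young controls. Vgf, Scg2, Vip and Adcyap1 were below that median in the 4 old controls, in old NACET replicates 1 and 2, in young control replicate 1 and in young NACET replicate 1. Tac1 was below it in the same libraries except old control replicate 4, and Penk was high in 2 libraries.

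The first comparison asked how the genes differed between old and young untreated retinas. Vgf was at 21.7, 29.1, 32.3 and 34.6 CPM in the 4 young controls and at 24.8, 20.0, 20.2 and 23.0 CPM in the 4 old controls. Young control replicate 1 lay among the old values and the other 3 young libraries lay above all old ones. The mean was 29.4 CPM ± 5.63 (SD, n = 4) in young and 22.0 ± 2.30 in old controls, a log2 fold change of -0.47 (SE 0.12), on which Vgf had been chosen. In the males of both ages by Xist, 2 young and 3 old libraries, a subset formed after seeing the data, it was -0.30.

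Among the granins, Scg2 was at 337, 394, 401 and 371 CPM in young and 371, 301, 327 and 329 CPM in old controls. The highest old library matched young control replicate 4 at 371 CPM, and young control replicate 1 fell among the old ones. The log2 fold change of Scg2 was -0.23 (SE 0.07), with an edgeR adjusted p of 0.131, and DESeq2 called it with an adjusted p of 0.0254. Chgb, the other abundant granin, was at 277, 328, 313 and 280.2 CPM in young and 301, 269, 262 and 287 CPM in old controls, with overlapping groups and a log2 fold change of -0.15 (SE 0.07, edgeR adjusted p 0.293).

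Of the peptide precursors, Adcyap1 was at 4.38, 4.47, 4.88 and 6.14 CPM in young and 3.97, 2.45, 3.78 and 4.19 CPM in old controls. It was the 1 of the 9 genes other than Vgf whose groups did not overlap, which 11.3% of all genes tested showed. Its log2 fold change was -0.52 (SE 0.18, edgeR adjusted p 0.180). Tac1 was at 17.1, 18.1, 19.7 and 22.7 CPM in young and 17.7, 12.2, 16.6 and 19.2 CPM in old controls, with a log2 fold change of -0.29 (SE 0.13, edgeR adjusted p 0.302). Vip was at 5.82, 11.2, 12.4 and 8.88 CPM in young and 8.05, 5.89, 8.05 and 9.38 CPM in old controls, and the lowest library of the 8 was a young one. The remaining fold changes ranged, on the log2 scale, from -0.16 (SE 0.11) for Cck and -0.11 (SE 0.14) for Npy to 0.04 (SE 0.25) for Sst, and Vip stood at -0.34 (SE 0.21). In labelled males alone, which still hold old control replicate 4 with its Xist counts, the value was -0.16 for Tac1 and -0.17 for Vip. In the libraries without Xist, a subset formed after seeing the data, it was -0.25 for Tac1 and -0.28 for Vip. Without old control replicate 2 it was -0.17 for Tac1 and -0.22 for Vip, and the value of Vip was -0.19 without young control replicate 3.

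Of the 9 genes other than Vgf, edgeR called 0 at an adjusted p under 0.05, where 1.42% of all genes tested were called. At an unadjusted p under 0.05 there were 5 of 9 (Tac1, Penk, Adcyap1, Scg2 and Chgb), all lower in old controls, where 16.3% of all genes passed and 7.24% passed as lower. DESeq2 called 1 of the 9, Scg2, against 4.50% of all genes. The median log2 fold change of the 9 genes was -0.23, with 8 of 9 below 0, beside a median of -0.0068 over all genes, of which 51.8% were below 0. Markers of ganglion cells moved with this comparison: 10 of 10 had a log2 fold change below 0, 6 of them at an unadjusted p under 0.05, 0 were called, their median was -0.31, and their summed level was 1007 to 1317 CPM in young and 920 to 1205 CPM in old controls. The 9 amacrine markers tested had a median of 0.03, and 0 of them had an unadjusted p under 0.05. The part of ganglion cell content in the differences of the 9 genes was not tested.

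The second comparison asked how the genes differed between old mice with and without NACET, and shares the old controls with the first. Vgf ranged from 24.6 to 37.5 CPM in old NACET retinas (median 33.9), and its mean was 31.7 CPM ± 5.19 (SD, n = 6). All 6 libraries were above the old control mean, and 1 of them lay within the range of the old controls. The log2 fold change was 0.53 (SE 0.11), on which Vgf had been chosen.

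In Vgf the 6 old NACET libraries split by age. The whole count profiles did not group in this way, by a chi-square per degree of freedom between libraries. Replicate 1 stood at 23.15 to 32.2 from the other old NACET libraries, with 24.39 from replicate 2, the other mouse of 668 days. Replicate 2 stood at 4.36 to 6.01 from the 4 younger ones. The 2 mice of 668 days, the age of every old control, had 24.6 and 26.0 CPM of Vgf, next to the highest old control at 24.8 CPM. The 4 mice of 581 and 574 days had 33.3, 37.5, 34.5 and 34.6 CPM, above every old control. In the 668-day mice alone the log2 fold change of Vgf was 0.20, and with only the 4 others as the NACET group, an alternative added after seeing the data, it was 0.67. As no old control was 581 or 574 days old, NACET and the age of these 4 mice cannot be told apart.

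In 5 of the 9 other genes the 4 mice of 581 and 574 days also lay above both 668-day NACET mice, as they did in 9.03% of all genes tested. In 4 of these 5 they lay above every old control too, which held for 1.78% of all genes. Both shares were computed after the split had been seen. Vip was at 7.35 and 9.72 CPM in the 668-day NACET mice and at 12.9 to 16.3 CPM in the 4 others, beside 5.89 to 9.38 CPM in old controls. Tac1 was at 14.4 and 17.2 CPM against 21.0 to 26.6 CPM, beside 12.2 to 19.2 CPM. Adcyap1 was at 3.72 and 3.66 CPM against 4.77 to 6.73 CPM, beside 2.45 to 4.19 CPM. In these 3 genes, as in Vgf, the 4 mice of 581 and 574 days lay above all old controls, whereas the 668-day NACET mice overlapped with them.

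Scg2 was at 356 and 363 CPM in the 668-day NACET mice and at 396 to 421 CPM in the 4 others, beside 301 to 371 CPM in old controls. Npy followed with 4.72 and 5.01 CPM against 5.27 to 7.07 CPM, but its 4 higher mice overlapped with the old controls, at 4.00 to 6.02 CPM. Chgb, Cck, Sst and Penk did not divide by age. Chgb was at 269 and 295 CPM in the 668-day NACET mice and at 269 to 299 CPM in the others, inside the range of the old controls (262 to 301 CPM).

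Over the 6 libraries the log2 fold change was 0.64 (SE 0.19) for Vip, 0.51 (SE 0.19) for Adcyap1, 0.37 (SE 0.16) for Tac1 and 0.23 (SE 0.06) for Scg2, with edgeR adjusted p of 0.135, 0.237, 0.311 and 0.0964. In the 668-day mice alone these 4 values were 0.12, 0.04, -0.06 and 0.11. The others were 0.13 (SE 0.14) for Npy, 0.06 (SE 0.12) for Cck, 0.02 (SE 0.05) for Chgb and -0.38 (SE 0.20) for Sst. Of the 9 genes edgeR called 0, beside 0.543% of all genes tested. At an unadjusted p under 0.05 there were 4 of 9, Vip, Tac1, Adcyap1 and Scg2, all higher under NACET, where 14.4% of all genes passed and 6.68% passed as higher. DESeq2 called 2 of the 9, Vip with an adjusted p of 0.0327 and Scg2 with 0.0085, beside 2.25% of all genes. Groups overlapped in all 9 genes, where 3.57% of all genes did not overlap. The median over the 9 genes was 0.23 and 8 of 9 were above 0, beside a median of 0.002 over all genes, of which 50.8% were above 0.

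Whether Vip and Scg2 were called changed with the mice left out. Without old NACET replicate 1, the lowest in Vip, edgeR called Vip (0.75, adjusted p 0.0385). With the 4 younger old mice as the NACET group edgeR called Vip (0.84, adjusted p 0.0127) and Scg2 (0.30, adjusted p 0.0321). Old control replicate 2, the library high in corneal genes, had the lowest Scg2, Vip, Tac1 and Adcyap1 of the old controls. Without it the log2 fold changes were 0.52 for Vip, 0.20 for Scg2, 0.25 for Tac1 and 0.36 for Adcyap1. This library also had the lowest Vgf of the old controls, at 20.0 CPM beside 20.2 CPM in replicate 3. It had the highest Sst of the old controls, and without it the value of Sst was -0.17.

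Cell type markers moved with this comparison as well. All 9 amacrine markers tested had a log2 fold change above 0 (median 0.16, 5 at an unadjusted p under 0.05, 0 called), with summed levels of 817 to 921 CPM in old controls and 860 to 1031 CPM in old NACET retinas. All 10 ganglion cell markers were above 0 (median 0.17, 2 at an unadjusted p under 0.05, 0 called). Their sum also divided by age among the NACET mice, with 1019 and 1011 CPM in the 668-day mice and 1183 to 1349 CPM in the 4 others. Unlike for Vgf, these 4 overlapped with the old controls, at 920 to 1205 CPM. The amacrine sum did not divide by age, with 926 and 904 CPM against 860 to 1031 CPM. The part of these cells in the differences was not tested.

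**Figure D2:**
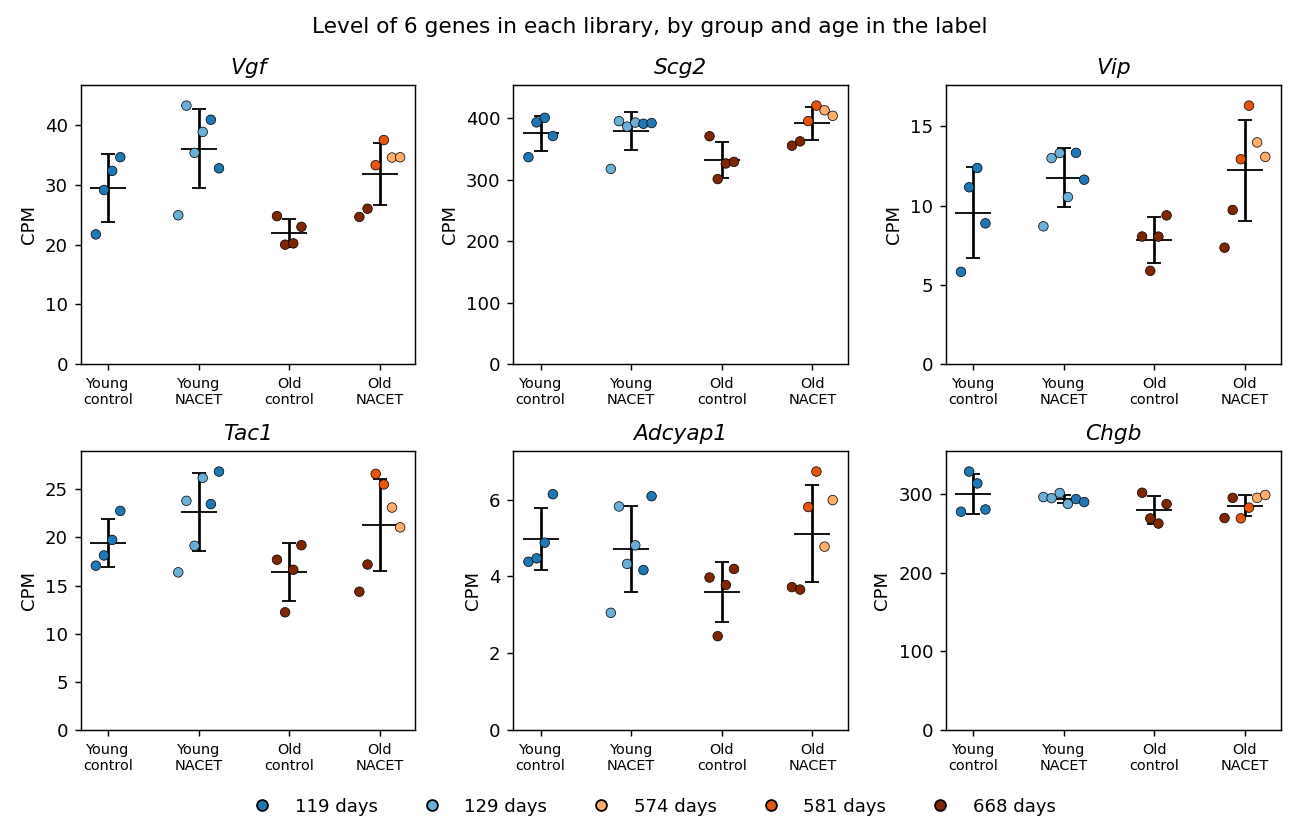
CPM of 6 genes in each library by group, with the mean and SD as a line and bars, and points coloured by age in the label. In old NACET retinas, Vgf, Scg2, Vip, Tac1 and Adcyap1 were lower in the 2 mice of 668 days than in the 4 mice of 581 and 574 days, and Chgb was not.

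In young mice NACET was compared with untreated retinas, on which no gene had been chosen, although the young controls are those of the first comparison. As every young control was 119 days old, NACET and the age of the 129-day NACET mice cannot be told apart. Vgf ranged from 24.9 to 43.2 CPM in young NACET retinas (median 37.1) and its mean was 36.0 CPM ± 6.60 (SD, n = 6), with 5 of 6 libraries above the young control mean. The groups overlapped, and the log2 fold change was 0.28 (SE 0.14). It is given with no test because the young controls are among the libraries on which Vgf was chosen. Without young control replicate 1 it was 0.17. The lowest libraries of both groups, young control replicate 1 and young NACET replicate 1, were also the lowest in Scg2 and Vip.

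Scg2 ranged from 318 to 396 CPM (median 392) in young NACET retinas, a log2 fold change of 0.003 (SE 0.07), and Chgb from 287 to 301 CPM, a log2 fold change of -0.04 (SE 0.06). Vip and Tac1 stood at 0.28 (SE 0.17) and 0.21 (SE 0.13), and Adcyap1 at -0.10 (SE 0.18). The value of Vip was 0.12 without young control replicate 1 and 0.44 without young control replicate 3. Among the 9 genes other than Vgf edgeR called 0, beside 0.0% of all genes. At an unadjusted p under 0.05 there was 1 of 9, Penk, beside 4.36% of all genes, and DESeq2 called 0 of the 9. No gene had separate groups, where 0.723% of all genes did. The median of the 9 genes was 0.003, beside -0.0045 over all genes.

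Among NACET mice, old and young retinas were compared with libraries that both enter the comparisons above. Vgf had a log2 fold change of -0.23 (SE 0.12), given with no test because the old NACET libraries are among those on which it was chosen. The value was -0.09 (SE 0.05) for Chgb, -0.13 (SE 0.14) for Tac1, 0.01 (SE 0.16) for Vip and -0.001 (SE 0.06) for Scg2. Of the 9 genes other than Vgf, edgeR called 0, beside 4.88% of all genes, and 0 passed an unadjusted p under 0.05, beside 21.1%. DESeq2 called 0 of the 9. Groups overlapped in all 10 genes, where 4.07% of all genes were separate.

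Whether NACET acted differently at the 2 ages was tested as an interaction over all 20 libraries. For Vgf the difference of the log2 fold changes, old minus young, was 0.25 (SE 0.19), given with no test because it holds the old NACET contrast on which Vgf was chosen. It was 0.23 (SE 0.09) for Scg2, 0.60 (SE 0.28) for Adcyap1, 0.35 (SE 0.28) for Vip and 2.26 (SE 0.82) for Penk. Without old control replicate 2 the value of Vip was 0.23, and without young control replicate 3 it was 0.20. edgeR called 0 of the 9 genes other than Vgf and 0.0% of all genes, and 3 of 9 (Penk, Adcyap1 and Scg2) had an unadjusted p under 0.05, beside 6.19% of all genes. DESeq2 called 0 of the 9.

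Females and males by label were compared in the 10 young libraries with NACET as a covariate. In the young NACET group the males were labelled 129 days and the females 119 days (129 by another label in replicate 6). Sex and age can hardly be told apart in that group. Vgf differed by 0.21 (SE 0.13, edgeR adjusted p 0.953) and Tac1 by 0.26 (SE 0.11, adjusted p 0.953) on the log2 scale, higher in females, and the value of Vgf was 0.13 without young control replicate 1. 0 of the 10 genes were called by edgeR, beside 0.0761% of all genes, and 0 by DESeq2. Tac1 was the 1 of 10 with an unadjusted p under 0.05, beside 4.77%.

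**Figure D3:**
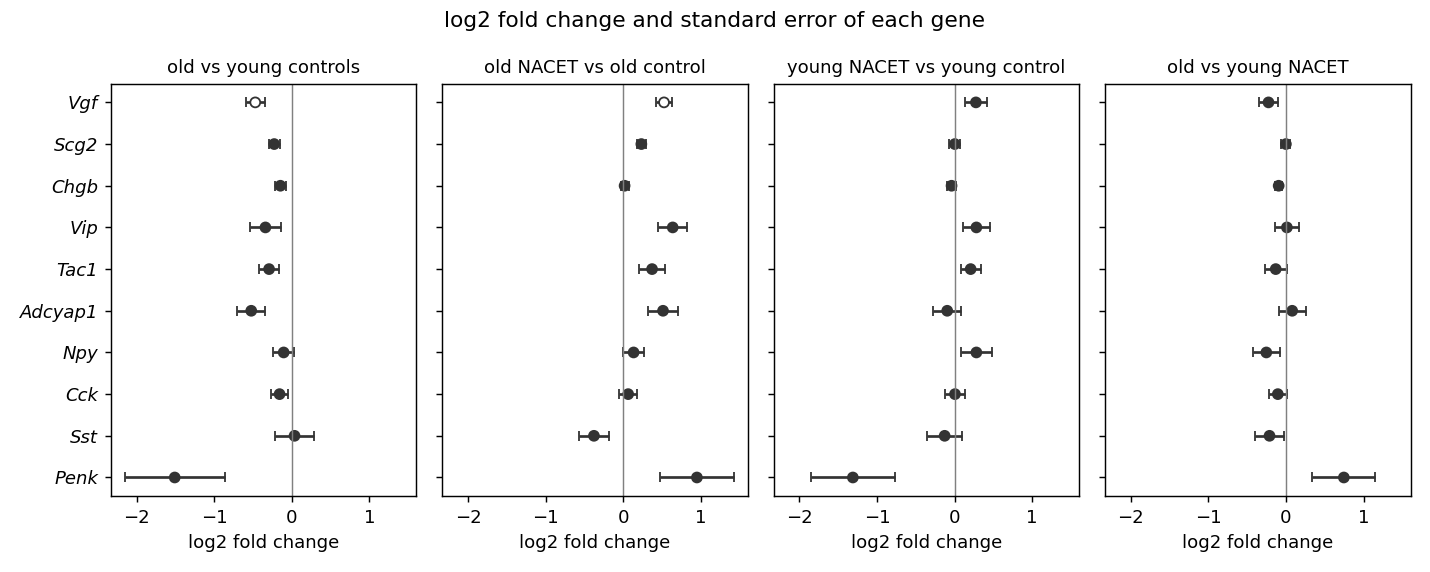
log2 fold change (x axis) with its standard error for each of the 10 genes (rows) in the 4 comparisons of 2 groups. Open points mark Vgf in the 2 contrasts on which it was chosen, and Penk has the widest bars, with SE between 0.40 and 0.65.

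Penk stood apart because a single high library decided its value in each comparison of 2 groups. Young controls had 9.84, 7.13, 5.62 and 61.9 CPM, and young NACET retinas 6.01 to 11.1 CPM (median 8.19). Old controls had 8.65, 8.27, 7.01 and 6.48 CPM, and old NACET retinas 7.41 to 44.8 CPM (median 8.18). The high libraries were young control replicate 4, with 1331 Penk counts, and old NACET replicate 3, with 918, and the other 18 libraries lay between 5.62 and 11.7 CPM.

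The Penk log2 fold change was -1.51 (SE 0.65) between old and young controls and -0.04 without young control replicate 4. Between young NACET and young control it was -1.31 (SE 0.54) and 0.17 without that library. Between old NACET and old control it was 0.95 (SE 0.48) and 0.18 without old NACET replicate 3, and the interaction value of 2.26 became 0.78 without young control replicate 4. Between old and young NACET mice it was 0.75 (SE 0.40) and -0.03 without old NACET replicate 3. Retinal pigment epithelium markers summed to 122 CPM in young control replicate 4, against 20.8 to 30.7 CPM in the other young controls, but to 18.0 CPM in old NACET replicate 3, the lowest of all 20 libraries.

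How the genes varied between mice of the same group was then measured after subtracting each group mean from the log2 CPM, which removes the contrasts on which Vgf was chosen. Across the 20 libraries Vgf correlated most closely with Scg2 (Pearson r = 0.861, permutation p 0.0002; Spearman rho = 0.756, permutation p 0.00062). Next came Vip (r = 0.798, permutation p 0.00033; rho = 0.653, p 0.00512) and Tac1 (r = 0.752, permutation p 0.00037; rho = 0.624, p 0.00724). Adcyap1 had r = 0.720 (permutation p 0.00111; rho = 0.684, p 0.00299) and Npy r = 0.629 (permutation p 0.00476; rho = 0.579, p 0.0148). In these 5 of the 9 genes the permutation p of r, unadjusted, was under 0.05.

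Cck had r = 0.441 (permutation p 0.0895; rho = 0.567, p 0.0191), which became 0.734 (permutation p 0.00098) without old NACET replicate 1. Chgb had r = 0.277 (permutation p 0.289; rho = 0.221, p 0.390), Sst r = 0.154 (permutation p 0.560; rho = 0.023, p 0.934) and Penk r = 0.11 (permutation p 0.751; rho = -0.026, p 0.922). Scg2 and Chgb, the most abundant granins, thus differed in their values against Vgf, although the difference between their correlations was not tested. Leaving out the 2 libraries farthest in Vgf, young NACET replicate 1 and young control replicate 1, gave r = 0.753 for Scg2, 0.713 for Vip, 0.709 for Tac1, 0.659 for Adcyap1 and 0.512 for Npy.

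A fit across all genes, edgeR with the group-centred log2 level of Vgf as a covariate beside group, was added after seeing the data. The slope was 0.31 (SE 0.07) for Scg2, 1.04 (SE 0.22) for Vip, 0.76 (SE 0.19) for Tac1, 0.88 (SE 0.25) for Adcyap1 and 0.73 (SE 0.24) for Npy, in log2 units per log2 unit of Vgf. These 5 were the ones of 9 with an unadjusted p under 0.05, where 4.30% of all genes rose with Vgf at that level. After adjustment over the 16992 genes tested 0 of the 9 were called, with adjusted p of 0.254 for Vip and 0.281 for Scg2, and 0.00589% of all genes were called.

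As the old NACET group holds mice of 3 ages and the young NACET group of 2, the means of each group and age were also removed, an alternative added after seeing the data. Then r was 0.823 for Scg2, 0.71 for Vip, 0.666 for Tac1, 0.611 for Adcyap1 and 0.592 for Npy, and 0.569 (permutation p 0.00334) for Cck. The libraries also differed in the summed levels of cell type markers. Vgf had r = 0.645 with the summed amacrine markers, 0.504 with the ganglion cell markers and -0.388 with the rod markers, as a description. The lowest amacrine sums of all libraries (703 and 728 CPM) and the highest rod sums (93447 and 92127 CPM) were found in young control replicate 1 and young NACET replicate 1, which were also lowest in Vgf within their groups. With the amacrine and ganglion cell sums regressed out, also added after seeing the data, r was 0.706 for Scg2, 0.717 for Vip, 0.658 for Tac1, 0.668 for Adcyap1 and 0.287 for Npy.

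Among the 16992 genes ranked by r with Vgf, Scg2 was first, Vip came at rank 10, Tac1 at 31, Adcyap1 at 66 and Npy at 342. The 5 genes with the highest r were Scg2, Myh10 (0.830), Sh3kbp1 (0.826), Napa (0.821) and Kcnj10 (0.820), over 20 libraries. Cck stood at rank 2108, Chgb at 5157, Sst at 7844 and Penk at 8865.

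**Figure D4:**
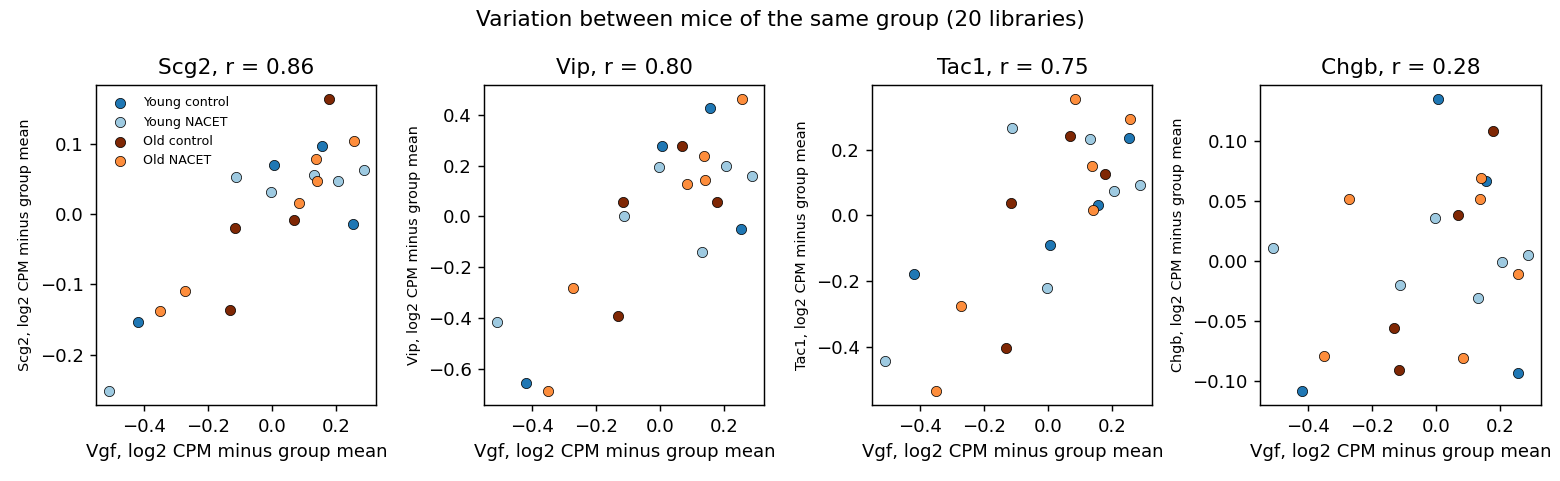
log2 CPM minus the group mean for Vgf (x axis) against Scg2, Vip, Tac1 and Chgb (y axes, each on its own scale) in 20 libraries, coloured by group. Points rise along the diagonal for Scg2 (r = 0.86), Vip (0.80) and Tac1 (0.75) and scatter for Chgb (0.28).

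Lists of other genes of the peptide pathway were read beside these results, by their counts in edgeR at an adjusted p under 0.05. The list of other granins and precursor processing held 9 genes, among them chromogranin A and the convertases that cut the precursors. Of these, 0 were called in any of the 6 comparisons, and their medians were -0.08 between old and young controls and -0.01 between old NACET and old control, on the log2 scale. Dense core vesicle machinery, with 12 genes for the docking and release of these vesicles, had medians of -0.01 and 0.06, and 1 gene was called, Syt9, a calcium sensor for release, which was lower in old than in young NACET retinas (-0.22, SE 0.06, adjusted p 0.0381).

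Of 20 peptide receptor genes 12 or 13 passed the filter on low counts, with medians of 0.03 and 0.02 in the same 2 comparisons. The 1 receptor called was Cckbr, for cholecystokinin and gastrin, lower in old than in young NACET retinas (-0.35, SE 0.10, adjusted p 0.0458), while its ligand gene Cck was not called in any comparison. Of 16 other neuropeptide precursors 8 or 9 were tested and 0 were called, with medians of -0.07 and 0.07. Their summed level divided by age in old NACET mice, as Vgf did. It was 89.1 and 103.7 CPM in the 668-day NACET mice and 114.9 to 131.5 CPM in the others. Old controls had 88.4 to 104.9 CPM. The sum mostly follows Cartpt, Tac2 and Pdyn, with means of 65.2, 21.0 and 18.2 CPM in old NACET retinas. Every other gene of the list had a mean of at most 2.14 CPM there. Its single genes were not compared by age. Within groups this sum had r = 0.745 with Vgf, as a description, against -0.262 to 0.52 for the other lists of the peptide pathway. Neurotrophin and CREB signalling, with 10 or 11 of 12 genes tested, had 0 called and medians of -0.08 and 0.09; 10 of 11 were above 0 between old NACET and old control, 1 of them at an unadjusted p under 0.05.

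Activity-regulated genes, whose transcription follows neuronal activity and which include further CREB targets, formed the last list. Of the 9 tested, 3 were called lower between old NACET and old control, where 0.543% of all genes were called. They were Egr1 (-1.42, SE 0.24, adjusted p 0.025), Fos (-0.86, SE 0.12, adjusted p 0.0126) and Nr4a1 (-0.70, SE 0.12, adjusted p 0.0229). Vgf was higher in the same libraries, a contrast on which it had been chosen. The list had a median of -0.29 there and 7 of 9 at an unadjusted p under 0.05, all lower, beside 14.4% of all genes in either direction. The same 3 genes were called lower in old than in young NACET retinas, a comparison that shares the old NACET libraries. In young mice the median between NACET and control was -0.39, and 0 were called. At an unadjusted p under 0.05 there were 4 of 9, all lower, beside 4.36% of all genes in either direction. Within groups the summed level of this list had r = -0.03 with Vgf, as a description.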

How the data were processed

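The deposited files hold raw counts of reads per gene, 1 file per library. Per the labels and the study's methods, the authors made polyA libraries, sequenced single ends, aligned the reads to mm9 with TopHat2 2.1.0 and counted over exons with HTSeq 0.11.2 without strand. The annotation used for counting is not given in the sources used here. Summary rows and a row with no gene name (up to 0.00218% of a library) were left out. Reads of a gene and its antisense partner could not be told apart, and reads with more than 1 alignment (6.65% to 7.92%) were not counted.

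Groups came from the labels. Each pair of groups was tested with edgeR 4.0.16 (R 4.3.3): TMM, the default expression filter, the quasi-likelihood test, and Benjamini-Hochberg adjustment over all genes tested, at 0.05. Scripts were tested on simulated data. Correlations used log2 CPM with a prior count of 1 and 100000 two-sided permutations within groups (Python 3.11.15). The planned adjustment over the 9 correlations alone is not printed, because the members and lists were chosen with earlier results of these data known. The named genes were the 10 members, list genes called (at most 4 per list and comparison) and the 5 genes most like Vgf. Alternatives were DESeq2 1.42.0, RLE normalization, no filter, replicate blocks, subsets by age or sex, and leaving out libraries. No libraries of a group agreed within sampling noise (chi-square per degree of freedom 2.52 to 32.2).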

Additional observations from a re-analysis of the deposited data

Results flagged for a closer look

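In 40 groups of values (10 genes in 4 groups), a library was set apart when its gap to the nearest other was large against the whole range, by Dixon's 95% critical value. Chance gives about 1 in 20, and 4 libraries were set apart. Penk was at 61.9 CPM in young control replicate 4 and at 44.8 CPM in old NACET replicate 3. Cck was at 5.10 CPM in young control replicate 1, below the other young controls, whose Cck lay at 5.91 to 5.97 CPM. Scg2 was at 318 CPM in young NACET replicate 1, below the other 5 young NACET libraries at 387 to 396 CPM. No gene had a called interaction of NACET with age, and in no gene did every library of the old and of the young NACET group move in opposite directions from its control mean.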

How the results depend on the processing

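Of the 9 genes other than Vgf, the number called between old and young controls was 1 with DESeq2. Between old NACET and old control it was 2 with DESeq2, 2 with only the NACET mice of 581 and 574 days (added after seeing the data) and 0 to 1 with each library left out. Of the 9 correlations with Vgf, 0 were called in the added fit over all genes, and 5 to 6 had an unadjusted permutation p under 0.05 with each library left out. In the 126 other alternatives of these counts the values stayed within 1.5 times the reported ones. Over all genes, the number called changed by more than 1.5 times in these cases: between old and young controls from 234 to 721 with DESeq2; between old NACET and old control from 90 to 375 with DESeq2, 150 with no filter, 17 with the replicate block and 0 in 668-day mice; between old and young NACET from 795 to 1326 with DESeq2 and 422 with the block; for the interaction from 0 to 86 with DESeq2 and 49 with no filter; for young NACET from 0 to 6 with the block; and for sex from 13 to 26 with DESeq2 and 32 with no filter. The causes were not tested.

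Some log2 fold changes changed sign in an alternative, and not all of them were small. Sst between old and young controls was -0.27 in labelled males, -0.35 in libraries without Xist and -0.17 to 0.17 with each library left out, and Npy was -0.18 to 0.002. In 668-day mice under NACET, Npy was -0.14 and Tac1 -0.061, beside 0.13 (SE 0.14) and 0.37 (SE 0.16) over all old NACET libraries. Vgf was smaller there but kept its sign, at 0.20 beside 0.53. Between old NACET and old control, with each library left out, Cck ranged from -0.002 to 0.11 and Chgb from -0.008 to 0.04. In young mice under NACET, Penk was 0.084 in labelled males and -1.62 to 0.17 with each library left out, Adcyap1 was 0.045 in 119-day mice and -0.18 to 0.019, and Scg2 was -0.003 without the 2 young NACET libraries high in corneal genes and -0.029 to 0.044. Between old and young NACET, Scg2 was 0.024 in labelled males, 0.0 with no filter and -0.033 to 0.028, Vip ranged from -0.087 to 0.13 and Penk from -0.032 to 0.88 with each library left out.

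Replicate numbers recur in the groups but the labels tie no mice by them. Deviations of same-numbered libraries correlated between -0.185 and 0.267, so the numbers do not pair the samples. With a replicate block 0 of the 9 genes other than Vgf were called in the 5 comparisons. Chgb between old NACET and old control was -0.009, Scg2 between young NACET and young control -0.031 and Vip between old and young NACET -0.011. Depth limits the least abundant gene per kilobase, Adcyap1, to 69 to 137 counts per library, and covers counting error only. The lowest count of Sst was 67.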
